A study of Homo sapiens with 2 samples.

Results

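Imprinted genes are expressed mainly from the chromosome inherited from 1 parent. The 10 studied here, H19, IGF2, KCNQ1, CDKN1C, DLK1, MEG3, SNRPN, UBE3A, PEG10 and MEST, were taken by name under a rule that used no measured value. Earlier results of these data were known when the genes were chosen. All 10 were placed on hg19 at positions rounded to 0.01 Mb. They lie in 5 regions of 4 chromosomes, and each was described by the features within 500 kb on either side. The Hi-C libraries, which record pairs of DNA fragments held close together in the nucleus, came from HEK293T, an established line of human embryonic kidney origin, with no treatment beyond fixation in 1% formaldehyde. There were 2 libraries, labelled as replicates of 1 group, and the labels give no separate cultures and no second condition. Of the 3845 contact domains, 1507 loops and 2883 scored 1 Mb compartment bins in the deposited tables, 5 domains and 4 loops touched a window of these genes.

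At imprinted loci a stretch of DNA methylated on the copy from 1 parent, the imprinting control region, sets which copy of the neighbouring genes is active. At H19 and IGF2 that region binds the insulator protein CTCF on the unmethylated maternal copy and separates IGF2 from enhancers shared with H19. CTCF and the cohesin ring also hold together the ends of many contact domains and loops, which is why such loci are often examined in maps of chromatin folding. Contacts are not separated by parental copy in these tables, so nothing below distinguishes the active from the silent copy. The number of copies of each locus in this line was not examined. Both libraries were merged in the authors' calls, so no value has a replicate error. The depth of each library is unknown, and the loop pixels, with a median of 74 observed contacts (range 13 to 349), give the only view of it.

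The promoter table held 5 of the 10 genes. The 250 bases before the start with the most CpG sites are shown for 3 of them, chosen because they stood in different settings in this map. MEST (chr7:130486097-130486346) lay in a domain and in a bin of positive compartment score, MEG3 (chr14:100825858-100826107) lay in a domain beside a loop, and SNRPN (chr15:24954737-24954986) lay far from any listed domain or loop. The sequences are RefSeq's for GRCh38.p14, plus strand, and these 3 coordinates are in that build, whereas all other positions are hg19. CpG sites, the kind of site at which DNA is methylated, are in capitals. Methylation was not measured here, and the stretches were not chosen as imprinting control regions.
MEST: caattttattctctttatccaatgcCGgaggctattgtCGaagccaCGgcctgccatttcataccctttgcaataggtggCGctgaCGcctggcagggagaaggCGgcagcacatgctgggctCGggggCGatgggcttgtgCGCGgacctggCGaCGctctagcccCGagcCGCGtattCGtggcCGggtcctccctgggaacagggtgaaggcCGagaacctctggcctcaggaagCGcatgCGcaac
MEG3: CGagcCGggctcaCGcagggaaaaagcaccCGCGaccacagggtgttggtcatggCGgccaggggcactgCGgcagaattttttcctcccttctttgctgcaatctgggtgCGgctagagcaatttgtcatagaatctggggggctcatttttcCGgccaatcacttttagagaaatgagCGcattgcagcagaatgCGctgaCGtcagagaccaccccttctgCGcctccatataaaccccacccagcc
SNRPN: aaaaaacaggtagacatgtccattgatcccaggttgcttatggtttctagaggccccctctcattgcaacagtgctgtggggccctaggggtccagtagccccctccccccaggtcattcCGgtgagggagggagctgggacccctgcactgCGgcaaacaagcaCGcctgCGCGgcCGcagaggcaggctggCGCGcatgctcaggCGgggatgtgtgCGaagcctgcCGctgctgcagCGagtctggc
The MEST stretch held 20 CpG sites, MEG3 13 and SNRPN 12, against a median of 11 over 35116 promoters of the same length. H19 had 4 and UBE3A had 37, more than 96.0% of promoters. The count shown is the highest of 5 listed starts for MEST, 3 for MEG3, 4 for SNRPN and 3 for UBE3A, and H19 had 1 start. The background counts every listed start, so choosing the richest start raises the genes with several starts against it. The bins of the map are far wider than these stretches, so no value below is a measurement of the promoter itself.

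Contact domains, blocks of sequence that contact themselves more than their surroundings, held or crossed 5 of the 10 genes: KCNQ1, CDKN1C, DLK1, MEG3 and MEST. The other 5, H19, IGF2, SNRPN, UBE3A and PEG10, lay in none. Over the scored genome, 41.1% of positions taken every 10 kb were inside a domain, so the share among these genes is close to the background. The measures differ for KCNQ1, which was counted by any overlap of its 400 kb interval. Such an interval meets a domain more readily than a single position does. The genes come in clusters, and the 5 held by domains rest on 3 domains. A domain touched the window of 6 genes, while those of H19, SNRPN, UBE3A and PEG10 had none. Windows of 1 Mb along the genome had a domain in 75.4% of cases. The windows of KCNQ1 and UBE3A were longer, 1.4 and 1.1 Mb, and 19.6% and 23.2% of genome windows of those lengths had none.

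**Figure D1:**
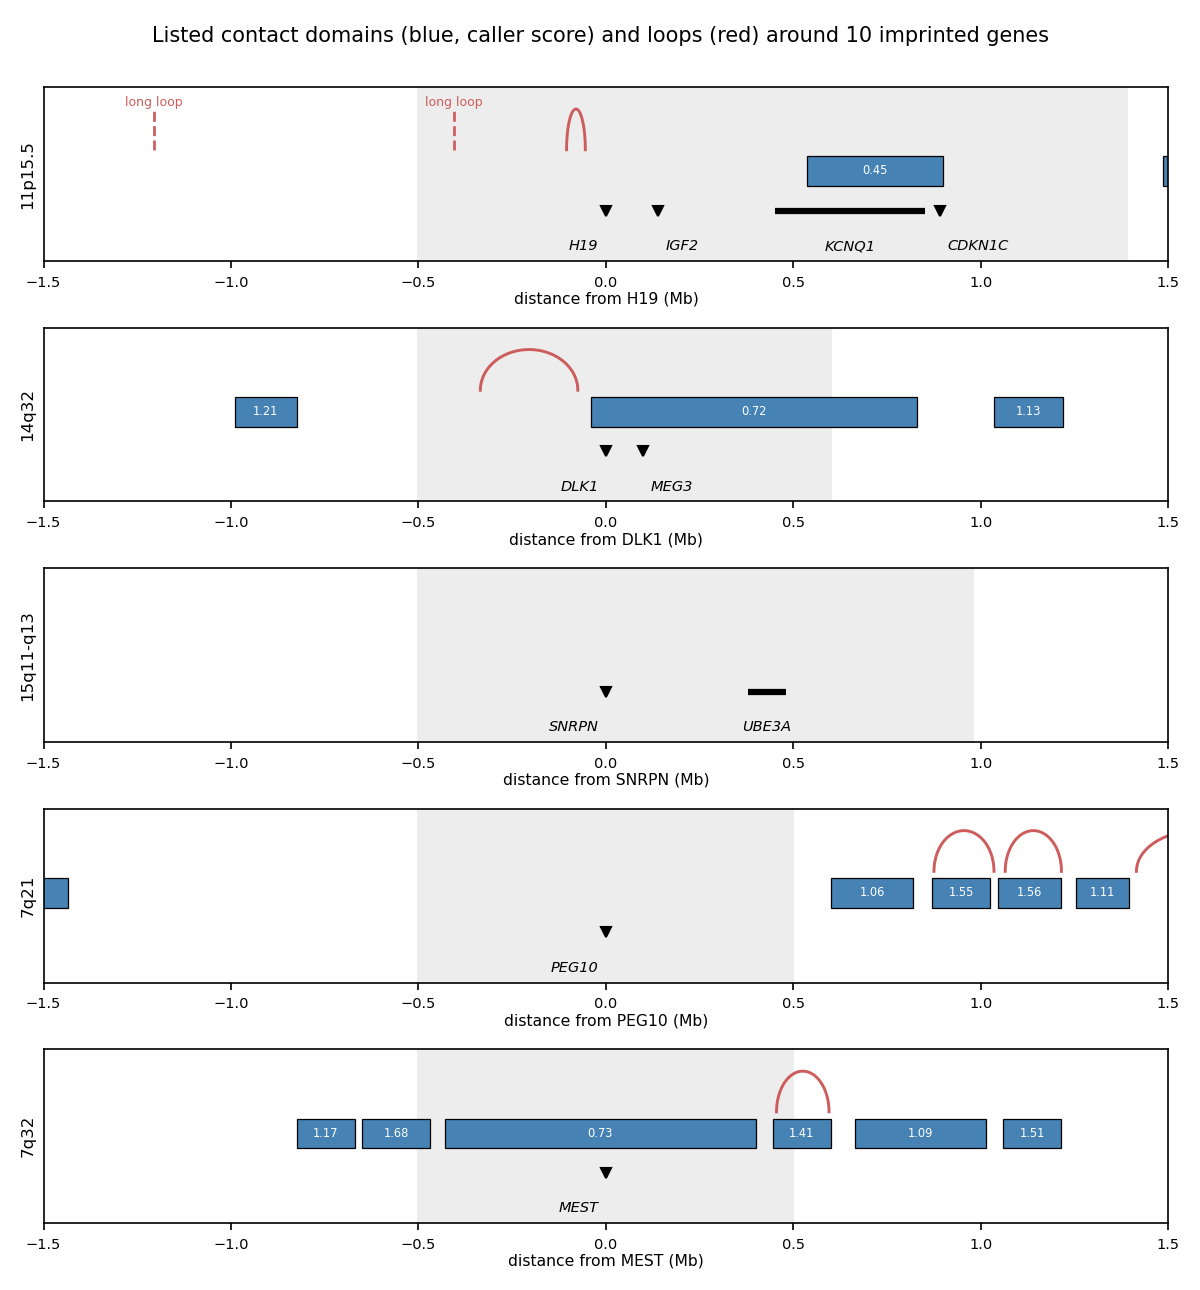
Maps of the 5 regions, with distance in Mb from the gene named under each panel on the horizontal axis, no vertical scale, the joined windows in grey, listed domains as blue bars with the caller's score, loops as red arcs and genes in black. A dashed red line is 1 anchor of a loop whose other anchor lies far outside the panel. The 3 domains that hold genes score 0.45, 0.72 and 0.73, and the panels of SNRPN and PEG10 have no domain in grey.

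The 3 domains that held imprinted genes were longer than the median domain and had low caller scores. The sources used here do not say what the score measures. Over all 3845 domains it ranged from 0.222 to 1.89 with a median of 1.20 (quartiles 1.03 and 1.39), and the median length was 235 kb. A domain found because it covers a given gene tends to be long, whichever gene is taken. No length background that allows for this was computed, so the lengths are not read as a trait of imprinted genes. The domain across KCNQ1 and CDKN1C (chr11:2555001-2920000, 365 kb) scored 0.454, with 0.364% of all domains scoring lower and 1 of the 182 on chromosome 11. The domain of DLK1 and MEG3 (chr14:101150001-102020000, 870 kb) scored 0.721, the lowest of the 140 on chromosome 14, with 2.96% of all domains lower. The domain of MEST (chr7:129700001-130530000, 830 kb) scored 0.726, with 3.04% of all domains and 3 of the 183 on chromosome 7 lower.

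Low scores moved with length in this table. Of the 118 domains that scored no higher than the MEST domain, 116 were 300 kb or longer, whereas 40.4% of all domains were. Set against domains within 20% of their own length, the scores remained low but less extreme for the longer domains. The KCNQ1 domain scored lower than all but 0.396% of 757 domains of its length, whose median was 1.22. For the DLK1 domain 9.85% of 203 domains of like length scored lower (median 1.13), and for the MEST domain 8.73% of 229 (median 1.15). None of the 3 held a smaller listed domain, and none had a loop joining its ends. Against 3845 domains, 952 loops joined the ends of a domain. The share of all domains with either feature was not computed, so neither absence is read as a trait of these 3. The domains without imprinted members in the MEST window scored higher, at 1.68 for chr7:129480001-129660000 and 1.41 for chr7:130575001-130730000.

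**Figure D2:**
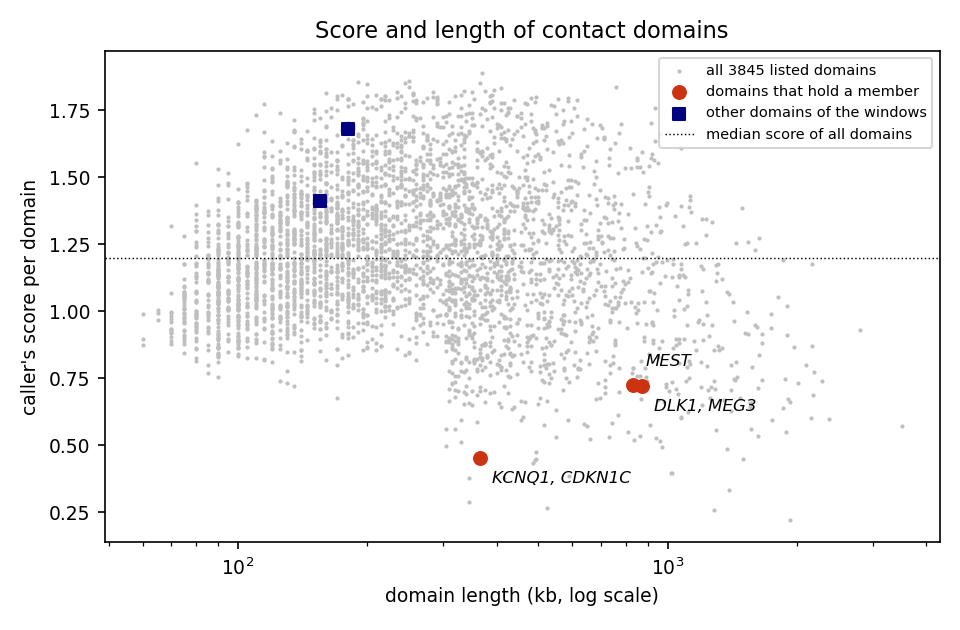
Caller's score against length in kb (log scale) for all 3845 domains in grey, with the 3 domains that hold a gene in red and the other 2 domains of the windows as blue squares. The red points, at 0.454, 0.721 and 0.726, lie under the dotted median of 1.20, and the blue squares, at 1.41 and 1.68, above it.

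On the short arm of chromosome 11, H19 (2.02 Mb), a long noncoding RNA expressed from the maternal copy, and IGF2 (2.16 Mb), a fetal growth factor expressed from the paternal copy, lay before the first domain listed on the chromosome. The nearest domain end was 535 kb from H19 and 395 kb from IGF2, and at both genes it was the start of the KCNQ1 domain. KCNQ1 (2.47 to 2.87 Mb), a potassium channel gene whose introns hold the promoter of the antisense RNA KCNQ1OT1, began 85 kb before that domain and had 315 of its 400 kb inside. CDKN1C (2.91 Mb), an inhibitor of cyclin-dependent kinases expressed from the maternal copy, was inside it, 10 kb from its far end. With positions rounded to 0.01 Mb and domains called on 5 kb bins, a distance of 10 kb is near the limit of what can be told. In RefSeq's gene order the genes between IGF2 and KCNQ1 include INS, TH, ASCL2, TSPAN32, CD81, TSSC4 and TRPM5, and those after CDKN1C include PHLDA2 and NAP1L4. They could not be placed on hg19 here.

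A short loop lay just before H19. It joined chr11:1910001-1920000 to chr11:1960001-1970000, 50 kb apart, and its nearer anchor ended 50 kb from H19. Its pixel held 42 contacts against 13.3 expected from the surrounding donut, a 3.16-fold enrichment (95% exact Poisson interval 2.28 to 4.27, counting error only), and in the authors' deposited table the highest FDR of the 4 against local expectations was 0.000291. The enrichment was above that of 77.0% of the 1432 loops up to 2 Mb, on fewer contacts than most of them. The 118 loops shorter than 100 kb had a median enrichment of 2.31-fold. Their median was 90.0 contacts, with a lower quartile of 68.8, so 42 contacts is few for a loop this short. Just 21 of all loops spanned 50 kb or less. It was also the loop nearest to IGF2, 190 kb away, to KCNQ1, 500 kb away, and to CDKN1C, 940 kb away. No loop in the table joined H19 to IGF2, or had an anchor between H19 and CDKN1C.

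A second loop in the H19 window spanned most of the chromosome. It joined chr11:1610001-1620000, which ends 400 kb from H19, to chr11:71270001-71280000, 69.66 Mb away. The pixel held 41 contacts against 0.660 expected from the donut, 62.1-fold (44.6 to 84.3), and 2.38 from the vertical neighbourhood, the highest of the 4, which gives 17.3-fold (12.4 to 23.4). It was 1 of 75 loops over 2 Mb, whose median donut enrichment was 17.5-fold. In RefSeq's gene order (GRCh38) a group of 6 keratin-associated protein genes of the KRTAP5 family lies before H19 on chromosome 11, and another 5 lie farther along than CDKN1C. Whether either anchor overlaps a KRTAP5 gene was not tested, since the builds differ.

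On chromosome 14, DLK1 (101.19 Mb), which encodes a transmembrane ligand related to the Notch ligands and is expressed from the paternal copy, lay 40 kb inside the start of its domain. MEG3 (101.29 Mb), a long noncoding RNA expressed from the maternal copy, lay 140 kb inside. The domain went on for 730 kb beyond MEG3. In RefSeq's order MEG3 is followed by RTL1, MEG8 and DIO3, with 53 miRNA genes and 47 snoRNA genes between MEG3 and DIO3. A loop ended just short of the domain, joining chr14:100850001-100860000 to chr14:101110001-101120000, 260 kb apart. Its nearer anchor was 70 kb from DLK1 and 170 kb from MEG3, and that anchor's centre was 35 kb from the start of the domain. The pixel held 84 contacts against 33.1 expected from the donut, 2.54-fold (2.03 to 3.14), close to the median of 2.68-fold for loops up to 2 Mb. In the authors' deposited table its highest FDR was 0.00819, the largest among the 4 loops. By the listed coordinates the loop lay on the side of the domain start away from DLK1 and MEG3. The 35 kb between them is within the 50 kb allowed here when loops are matched to domain corners. The next anchor on the other side was 2.98 Mb beyond MEG3.

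On chromosome 15, SNRPN (25.20 Mb), which encodes a protein of the splicing machinery and is expressed from the paternal copy, and UBE3A (25.58 to 25.68 Mb), a ubiquitin ligase expressed from the maternal copy in neurons, lay in the longest stretch without a domain among the 105 such stretches of the chromosome. It ran from 23250000 to 29425001, 6.175 Mb, and no bin in it lacked a score. Only 17 of the 3480 fully scored stretches between domains in the genome, this one included, were as long, and their median was 95 kb. The nearest domain end was 1.95 Mb before SNRPN and 2.33 Mb before UBE3A. Of positions taken every 10 kb along the genome, 93.7% and 95.3% were as near or nearer to a domain end. The 2 domains that bound the stretch also had low scores, 0.378 at chr15:22835001-23250000 and 0.676 at chr15:29425001-29930000. The first listed loop anchor of the chromosome began at 32935001, 7.735 Mb beyond SNRPN and 7.255 Mb beyond UBE3A. Between SNRPN and UBE3A, RefSeq lists 84 snoRNA genes, the products of the long transcript SNHG14, while MKRN3, MAGEL2 and NDN precede SNRPN.

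PEG10 on chromosome 7 (94.29 Mb), a gene derived from a retrotransposon and expressed from the paternal copy, lay in none of the listed domains. It lay in a stretch of 2.035 Mb without a domain, longer than 94.9% of such stretches, 1.435 Mb after the domain before it and 600 kb before the next, chr7:94890001-95110000. The nearest loop anchor was 870 kb away, beyond that domain, and 56.2% of positions on chromosomes with a loop were as near to one. Its window held no domain and no loop. Along the genome 24.6% of 1 Mb windows had no domain and 57.2% no anchor. In RefSeq's order SGCE and CASD1 precede PEG10 and PPP1R9A follows it.

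MEST on chromosome 7 (130.13 Mb), which encodes a hydrolase-like protein and is expressed from the paternal copy, had the most domains in its window. It was near the middle of its 830 kb domain, 430 kb from the start and 400 kb from the end, and 91.5% of its window was covered by domains. Of 1 Mb windows along the genome, 86.4% had 3 domains or fewer. The window's loop joined chr7:130580001-130590000 to chr7:130720001-130730000, 140 kb apart and 450 kb from MEST. With 91 contacts against 37.5 expected it was enriched 2.43-fold (1.95 to 2.98), with a highest FDR of 0.000302 in the authors' deposited table. It joined the ends of chr7:130575001-130730000, the domain after that of MEST, and was the single loop of the 4 at a domain corner. Of all 1507 loops, 63.2% were at a corner, with both anchors within 50 kb, or 0.2 of the loop's length where larger, of the ends of 1 domain.

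Loops reached the windows of 5 genes, H19, IGF2, DLK1, MEG3 and MEST. The windows of KCNQ1, CDKN1C, SNRPN, UBE3A and PEG10 had none. That of KCNQ1 begins at 1.97 Mb, where the nearer anchor of the short H19 loop ends, so its place among these is within the rounding of the positions. Among 1 Mb windows along the genome 42.8% had a loop anchor, so here too the share of genes is near the background. No anchor overlapped a gene's position. On chromosomes with a loop, 10.3% of positions lay within 50 kb of an anchor, so fewer still fall inside one. That smaller share was not computed, and the absence is not read as a result about the genes. Over the highest of the 4 expectations, the 3 loops up to 2 Mb were enriched 3.16-fold (2.28 to 4.27) before H19, 1.97-fold (1.57 to 2.44) before DLK1 and 1.99-fold (1.60 to 2.44) beyond MEST. The median of all listed loops up to 2 Mb on this measure was 2.15-fold. Differences between the 3 loops were not tested.

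Ordered by distance to a domain end, the genes ran from KCNQ1, which a domain start cuts, through CDKN1C (10 kb), DLK1 (40 kb), MEG3 (140 kb), IGF2 (395 kb), MEST (400 kb), H19 (535 kb) and PEG10 (600 kb) to SNRPN and UBE3A. The median was 398 kb, against 180 kb over positions taken every 10 kb (quartiles 60 and 560 kb). IGF2 and MEST differ by less than the rounding of the positions. To a loop anchor the order was H19 (50 kb), DLK1 (70 kb), MEG3 (170 kb), IGF2 (190 kb), MEST (450 kb), KCNQ1 (500 kb), PEG10 (870 kb), CDKN1C (940 kb), UBE3A and SNRPN. Their median of 475 kb stood beside 680 kb for all positions on chromosomes with a loop (quartiles 190 and 1860 kb). H19 was nearer to an anchor than most positions, with 10.3% as near, and its distance to a domain end was within the quartiles. CDKN1C was nearer to a domain end than most, with 6.22% as near, and its distance to an anchor was within the quartiles. Counting domains that score above the median, CDKN1C was 950 kb from a domain end. Genes of 1 region share these features and are not independent of each other.

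**Figure D3:**
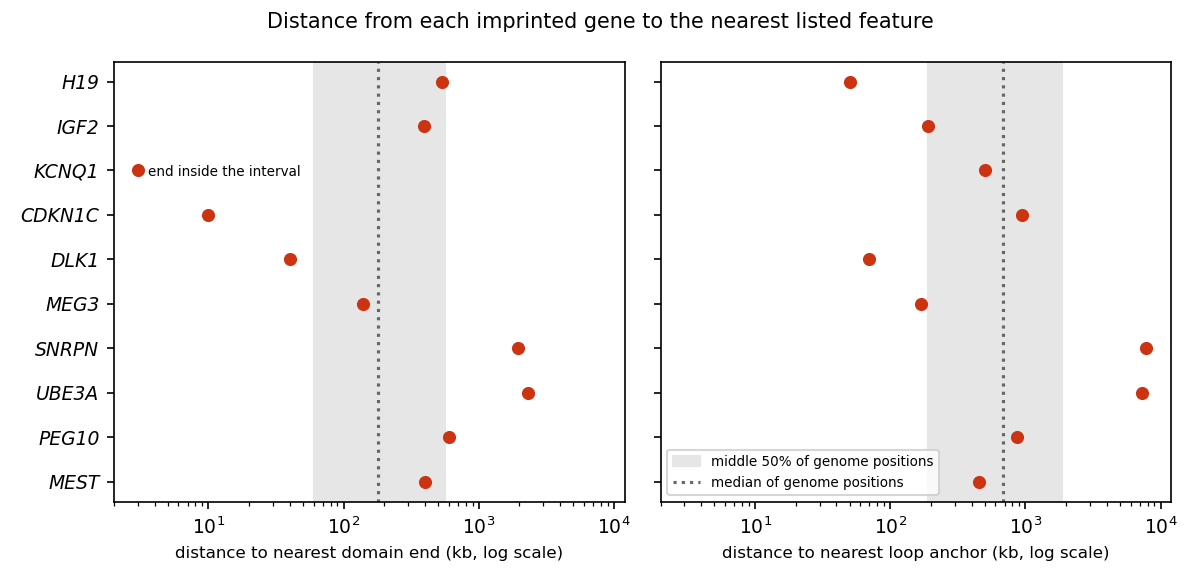
Distance in kb (log scale) from each gene to the nearest domain end (left) and the nearest loop anchor (right), with the median (dotted) and middle 50% (grey) of genome positions. KCNQ1, whose interval holds a domain end, is drawn at the left margin. SNRPN and UBE3A lie at 1950 and 2330 kb from a domain end and 7735 and 7255 kb from an anchor.

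Compartments, the megabase-scale separation of chromatin into a gene-rich, active A and a gene-poor B class, were compared on chromosomes 7 and 15 alone. The scores of chromosomes 11 and 14 were dominated by a few bins, with 57.4% and 42.3% of the summed squares in the top bin, and were not used. No source used here gives the sign convention, so bins are called by sign. SNRPN and UBE3A share the bin at 25 to 26 Mb, which scored -0.153, the third lowest of 83 scored bins of chromosome 15. The bins on either side, at 24 to 25 and 26 to 27 Mb, scored -0.153 and -0.144, the second and sixth lowest. All 3 belong to an unbroken negative run from 20 to 30 Mb, in which 3 of 10 bins were touched by a domain and none by a loop anchor. On this chromosome a domain touched 62.2% of the 37 negative bins and 95.7% of the 46 positive bins, and an anchor 18.9% and 52.2%.

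PEG10 and MEST differed in sign. The bin of PEG10 at 94 to 95 Mb scored -0.019, close to the chromosome 7 median of -0.014, and lay at the end of a negative run of 2 bins. The next bin, at 95 to 96 Mb, was positive at 0.032. The bin of MEST at 130 to 131 Mb scored 0.105, above 86.7% of the 158 scored bins, and the bin before it, also in the window, 0.128, above 96.2%. They belonged to a positive run of 6 bins from 128 to 134 Mb, flanked by negative bins of -0.031 and -0.037. Of the chromosome's bins 54.4% were negative. A domain touched 70.9% of its negative and 84.7% of its positive bins, and an anchor 41.9% and 47.2%. In the run of MEST, 3 of 6 bins were touched by a domain and 1 by an anchor. The bins of the genes therefore ran in the order SNRPN and UBE3A strongly negative, PEG10 near 0 and MEST strongly positive, each read within its own chromosome.

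**Figure D4:**
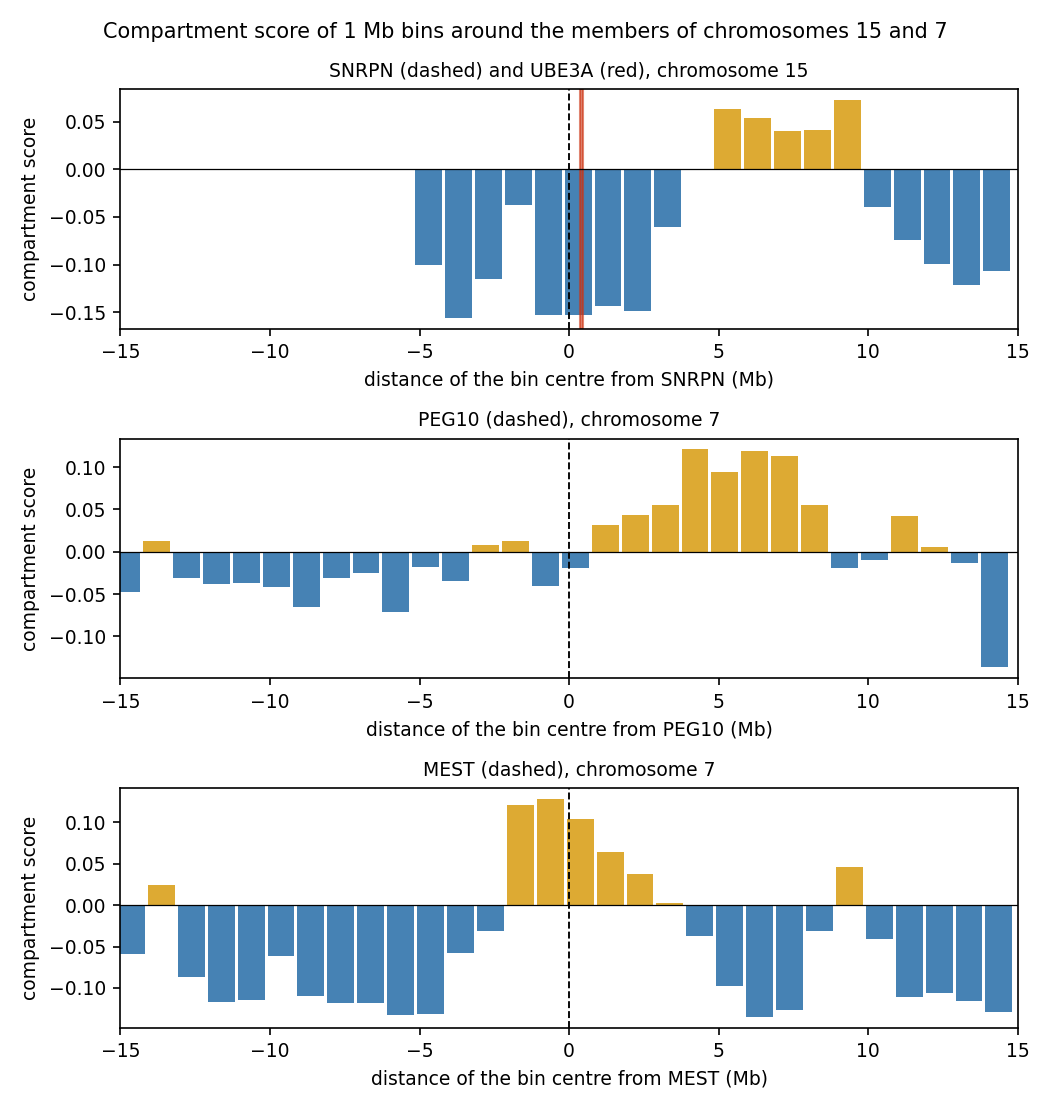
Compartment score of 1 Mb bins (positive gold, negative blue) against the distance of the bin centre in Mb from SNRPN, PEG10 and MEST, dashed, with UBE3A as a red band. Scores are scaled within each chromosome. The bins beside SNRPN score -0.153 to -0.144, that of PEG10 -0.019 next to a switch of sign, and that of MEST 0.105.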

How the data were processed

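Both in situ Hi-C libraries of HEK293T cells, cut with MboI per the labels' protocols, enter 3 whole-series tables with no column per library, so no replicate spread, left-out library or test between samples was possible. The submitters' processing notes name hg19 and, without roles, FastQC 0.11.7, Picard and BWA 0.7.8. The deposited compartment score is 1 value per 1 Mb bin, with squares that sum to 1 on each chromosome. The deposited domain score is the caller's own, on 5 kb bins, and no source used here names it. The loops were called with HiCCUPS at 5 and 10 kb, per the file's name. Per the file headers they carry the observed count of contacts, the contacts expected from 4 neighbourhoods and an FDR (q-value) for each, at most 0.0999.

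Gene positions came from the rule that chose the genes, in hg19 and rounded to 0.01 Mb. A domain touched a window by any overlap, a loop by an anchor. Backgrounds are full enumerations, not tests: windows stepped by 100 kb and positions every 10 kb within scored bins. Enrichment is observed over expected, with the exact 95% Poisson interval at a fixed expectation. The genes and lists were chosen with earlier results of these data known. All 10 genes are named by rule, with every domain holding one, every loop in a window and each compartment bin on chromosomes 7 and 15. RefSeq tables (GRCh38.p14) gave gene order and promoters. All 10 genes and 27 of 27 listed neighbours matched, 1 by a synonym. Counting and interval scripts were tested on simulated data. Python 3.11.15, numpy 2.4.6, pandas 2.3.3 and scipy 1.17.1 were used.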

Additional observations from a re-analysis of the deposited data

How the results depend on the processing

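With 250 kb on either side in place of 500 kb, the domains touching fell from 5 to 3 and the loops from 4 to 2; with 1000 kb there were 14 domains and 6 loops. Counting domains that score above the median left 2, both in the MEST window, and none of the 3 that hold a gene. The median distance to a domain end was then 970 kb. Without the MEST region, an alternative added after the data were seen, 2 domains remained. Placing KCNQ1 and UBE3A at their midpoints raised the median distance to an anchor to 575 kb and put KCNQ1 115 kb from a domain end. Limiting bins to those above their chromosome's median absolute score cut the negative bins in the windows from 5 to 3, since those of PEG10 dropped out. The number of domains with an end in the window (5), the loops with every FDR at 0.01 or less (4), the loops up to 2 Mb (3), the loops whose stretch between anchors overlaps a window (5) and the loops at a corner with tolerances of 25 and 10 kb (1 in each) were within 1.5 times of the main values or equal to them. At the stricter FDR PEG10 was 1060 kb from an anchor, and the 9 other genes kept their distances. No paired analysis was possible because the tables carry no column per replicate. The loop with the fewest contacts had 13, and the tables cannot show what lay under the callers' thresholds.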

Other observations

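The sequence just outside the windows differed between the regions. From 500 to 1000 kb away there were 9 more domains. On chromosome 11, 3 lay beyond CDKN1C (scores 0.983 to 1.64). Another 2 lay beside DLK1 and MEG3 (1.13 and 1.21), and 2 lay beyond PEG10 (1.06 and 1.55). Beside MEST were 2 (1.09 and 1.17), and none lay beside SNRPN and UBE3A. All 9 scored above each of the 3 domains that hold a gene, and 3 of them above the median of all domains. Only 3.04% of all domains scored below the MEST domain, the highest of those 3, so nearly any domain would score above them. The 9 were 100 to 350 kb long, shorter than the 3 that hold a gene. Of these domains, chr7:95160001-95315000 beyond PEG10 had a loop of 83 contacts, 2.29-fold over the donut, and chr11:3860001-4100000 beyond CDKN1C had a loop of 101 contacts, 2.70-fold.

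1 further loop spanned the genes of chromosome 11 with no anchor in a window. It joined chr11:810001-820000 to chr11:107770001-107780000, 106.96 Mb apart, on 13 contacts, the fewest of any loop, against 0.0164 expected from the donut. The enrichment was 792-fold, and 669-fold over the highest expectation.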
